A study of Mus musculus with 3 samples.

Results

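The genes described here are the T-box transcription factors Eomes and T-bet (gene Tbx21), the transcription factor Runx3, interferon gamma (Ifng) and the 2 chains of its receptor (Ifngr1 and Ifngr2), 6 genes of the 19935 that the arrays measured with a probe set naming a single gene. They were chosen by name for their place in 1 pathway, with earlier results of these data known. Their counts past 2-fold are therefore not independent of the choice. Each is represented by 1 probe set, and all 6 were among the 11003 genes bright enough to compare. The cells were naive CD4+ T cells of wild type C57BL/6 mice aged 8 weeks, cultured in vitro with IL-21, with IL-6 together with TGFb1 (IL-6/TGFb1), or with medium and vehicle. Each culture was measured on 1 array, so no value below has a replicate error, no test was possible, and a difference compares 2 arrays and not 2 conditions. The labels used here do not give doses, time in culture, T cell receptor stimulation or the number of mice behind a sample.

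T-bet and Eomes are related DNA-binding proteins that activate Ifng and genes of cytotoxic granules. T-bet directs CD4+ T cells to the Th1 fate, and Eomes is better known from CD8+ T cells and NK cells. Runx3 binds DNA with its partner Cbfb, cooperates with T-bet at Ifng and helps to silence Il4 in Th1 cells. Secreted interferon gamma binds a receptor of the ligand-binding chain Ifngr1 and the signalling chain Ifngr2, which acts through the kinases Jak1 and Jak2.

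The members of the pathway did not move together. Eomes and Ifng were lower in both cytokine cultures than in medium, and both were lowest with IL-6/TGFb1. Tbx21 was at nearly the same level with IL-21 as with medium and somewhat lower with IL-6/TGFb1. For Runx3, Ifngr1 and Ifngr2 the highest of the 3 cultures exceeded the lowest by at most 1.14-fold. Values are intensities on a linear scale, differences are in log2(intensity + 1), and a gene was counted as past 2-fold at a difference of at least 1 or at most -1. With IL-21, 2 of the 6 genes were at least 2-fold lower than with medium, against 0.109% of all compared genes. With IL-6/TGFb1 the same 2 genes were at least 2-fold lower, against 0.364% of all compared genes. No member was at least 2-fold higher than medium in either culture (background 0.482% with IL-21 and 0.673% with IL-6/TGFb1).

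Eomes had an intensity of 332 with IL-21 and 131 with IL-6/TGFb1, against 1180.3 with medium. Those are 28.1% and 11.1% of the medium level, or log2 differences of -1.83 and -3.17. Of the 11003 compared genes, 0 had a lower difference than Eomes in either comparison. That place was held by Ccdc141 with IL-21 when probe sets of a gene were averaged, and by Ccdc141 in both comparisons when the probe set of highest mean intensity stood for a gene. The IL-6/TGFb1 value lay below the brightness limit of 187, the median of all values, so the size of that difference rests on a dim signal. With values below the limit raised to it, the IL-6/TGFb1 difference was -2.65, and 2 genes (Ifi203 and Nrn1) were lower than Eomes.

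Ifng had an intensity of 514 with IL-21 and 289.9 with IL-6/TGFb1, against 1153 with medium. Those are 44.6% and 25.1% of the medium level, with log2 differences of -1.16 and -1.99. With IL-21, 8 compared genes had a lower difference than Ifng, and with IL-6/TGFb1 there were 7. The order of the 3 cultures was the same for Ifng as for Eomes, with medium highest and IL-6/TGFb1 lowest. RNA was taken from whole cultures, in which fewer expressing cells and less RNA per cell cannot be told apart.

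**Figure D1:**
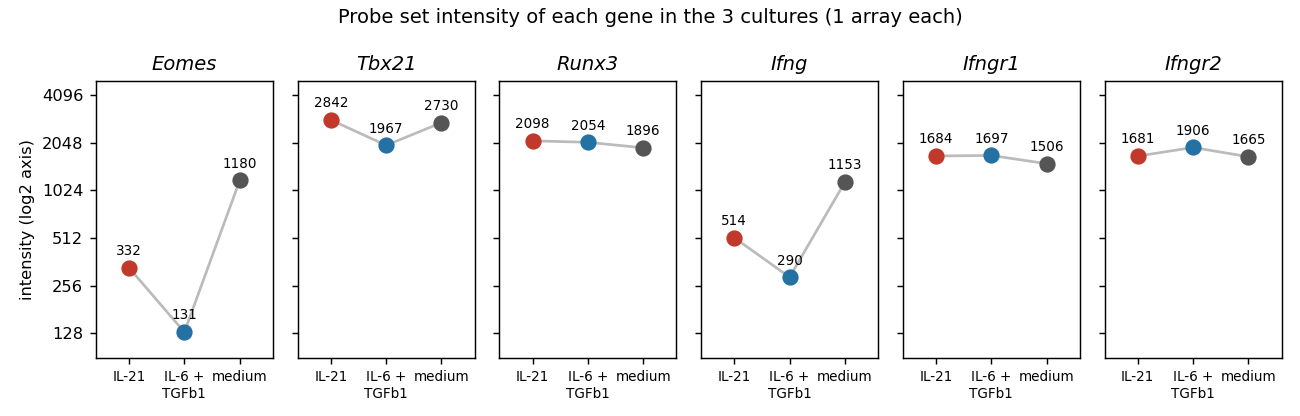
Probe set intensity (vertical axis, log2 scale) of the 6 genes in the cultures with IL-21, with IL-6/TGFb1 and with medium, 1 array each and so without error bars; grey lines join the values of a gene. Eomes (332, 131 and 1180.3) and Ifng (514, 289.9 and 1153) drop in both cytokine cultures, while the other 4 genes stay within 1.45-fold.

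Tbx21 had an intensity of 2842 with IL-21 and 1967 with IL-6/TGFb1, against 2730.3 with medium. The IL-21 and medium values were nearly equal, with a log2 difference of 0.06, and 4876 compared genes had a higher difference. With IL-6/TGFb1 the difference was -0.47, a level of 72.0% of medium, and 152 compared genes lay lower. The central 95% of compared genes spanned -0.35 to 0.59 in that comparison, so Tbx21 lay just outside it but within 2-fold.

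Runx3 had an intensity of 2098 with IL-21 and 2054.5 with IL-6/TGFb1, against 1896 with medium, log2 differences of 0.15 and 0.12. Its cultures differed by at most 1.11-fold. Among genes with 2 bright probe sets, the gap between the probe sets of a gene had a median of 0.07 and a 95th percentile of 0.41 in IL-21 minus medium, and of 0.07 and 0.37 in IL-6/TGFb1 minus medium. The differences of Runx3 were below both 95th percentiles. This gap covers probe set error within the arrays and not the spread between cultures.

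Ifngr1, the ligand-binding chain, had an intensity of 1684 with IL-21 and 1697 with IL-6/TGFb1, against 1506 with medium (log2 differences of 0.16 and 0.17). Ifngr2, the signalling chain, had an intensity of 1681 with IL-21 and 1906 with IL-6/TGFb1, against 1665 with medium (log2 differences of 0.01 and 0.19). The highest culture exceeded the lowest by 1.13-fold for Ifngr1 and 1.14-fold for Ifngr2. All 4 differences were inside the central 95% of compared genes, which in IL-21 minus medium spanned -0.35 to 0.54.

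The comparison of the cytokine cultures with each other does not use the medium array. Eomes had an intensity of 332 with IL-21 and 131 with IL-6/TGFb1, a log2 difference of 1.34, and only 12 of the 11003 compared genes had a higher one. It was the 1 member of 6 past 2-fold on the higher side, against 0.264% of all compared genes. The call rests on the dim IL-6/TGFb1 value: with values below the limit raised to it, the difference was 0.82, within 2-fold, and 43 genes had a higher one. Ifng followed with a difference of 0.82, exceeded by 50 genes, and Tbx21 with 0.53, exceeded by 117 genes. Both were outside the central 95% of compared genes, from -0.29 to 0.35, and within 2-fold. Runx3 (0.03), Ifngr1 (-0.01) and Ifngr2 (-0.18) were inside that range. These cultures differ in IL-21 against IL-6 and also in TGFb1, so the part of each cytokine cannot be told apart.

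**Figure D2:**
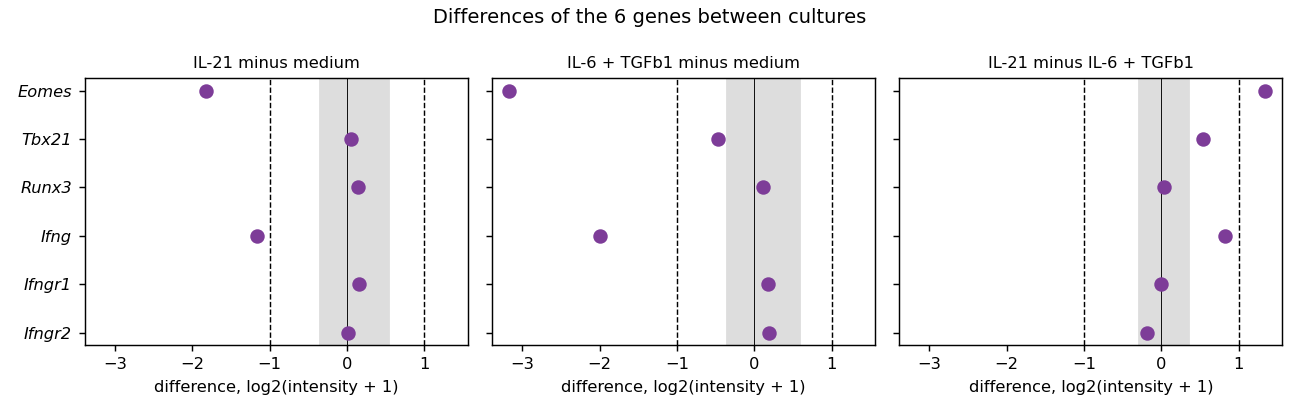
Difference in log2(intensity + 1) (horizontal axis) of each gene in 3 comparisons of 1 array with 1 array; grey bands span the central 95% of the 11003 compared genes and dashed lines mark 2-fold. Eomes (-1.83, -3.17 and 1.34) and Ifng (-1.16, -1.99 and 0.82) lie far outside the bands, Tbx21 lies outside in the last 2 panels, and Runx3, Ifngr1 and Ifngr2 lie inside all 3.

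The proximal promoters of Eomes and Ifng, the pair that was lower in both cytokine cultures, are shown with that of Tbx21, the related T-box gene that was within 2-fold of medium in both. RefSeq promoter windows (build GRCm38.p6) matched all 6 genes, with 7 windows because Runx3 has 2. Each window is the 250 bases before a transcription start, written 5′ to 3′ on the gene's strand. Eomes lies at chr9:118477939-118478188 (plus strand), Ifng at chr10:118440796-118441045 (plus strand) and Tbx21 at chr11:97115332-97115581 (minus strand). Capitals mark every match to the motifs named after the sequences.
Eomes: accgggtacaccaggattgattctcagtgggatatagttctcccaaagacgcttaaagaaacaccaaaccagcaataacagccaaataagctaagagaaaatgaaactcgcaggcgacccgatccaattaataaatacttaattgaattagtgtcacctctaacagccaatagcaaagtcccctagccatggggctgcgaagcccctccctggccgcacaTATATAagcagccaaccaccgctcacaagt
Ifng: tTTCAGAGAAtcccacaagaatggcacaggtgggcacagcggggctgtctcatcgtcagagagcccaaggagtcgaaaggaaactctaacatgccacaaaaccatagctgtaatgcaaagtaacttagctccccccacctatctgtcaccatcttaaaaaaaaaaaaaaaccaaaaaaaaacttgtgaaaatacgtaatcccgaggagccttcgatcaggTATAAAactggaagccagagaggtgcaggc
Tbx21: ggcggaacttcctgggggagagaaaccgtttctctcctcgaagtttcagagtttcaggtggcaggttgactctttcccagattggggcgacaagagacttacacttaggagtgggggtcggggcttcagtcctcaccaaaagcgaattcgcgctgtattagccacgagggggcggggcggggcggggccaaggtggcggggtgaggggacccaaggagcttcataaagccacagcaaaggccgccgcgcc

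Both strands were searched for GTGTGA (the core bound by T-box proteins), TGNGGT (Runx proteins), TTCNNNGAA (STAT proteins), CAGAC (Smad proteins, which carry TGF-beta signals) and TATANA (TATA box), the last of which was added after the sequences had been read. Eomes and Ifng each had 1 TATANA match, from 30 to 25 bases before the start in both genes, as TATATA in Eomes and TATAAA in Ifng. The Ifngr1 window had 2 overlapping TATANA matches, 1 on each strand, between 191 and 184 bases before the start. The Tbx21 window had no match to any of the 5 motifs. Of 32851 RefSeq promoter windows of the same length, 22.6% held TATANA anywhere. No share was computed for TATANA at the position seen in Eomes and Ifng. TATAAA, the form in Ifng, lay 15 to 45 bases before the start in 2.11% of plus-strand windows and 2.17% of minus-strand windows. The Ifng window also held TTCAGAGAA, a TTCNNNGAA match from 249 to 241 bases before the start, a motif found in 7.02% of windows. GTGTGA was found in 12.3% of all windows and in 0 of the 7 windows of these genes. TGNGGT, present in 40.1% of all windows, had 2 matches in 1 of the Runx3 windows and 2 overlapping matches in the Ifngr2 window. CAGAC, present in 42.2%, had 1 match in each Runx3 window and 1 in the Ifngr1 window. G and C made up 46.4% of the Eomes window, 45.2% of the Ifng window and 60.8% of the Tbx21 window. Over all windows the median was 52.4%, with a 5th to 95th percentile of 34.8% to 73.6%, a range that holds these values. The other members had 59.2% (Ifngr1), 74% (Ifngr2), and 65.2% and 78.8% (Runx3). A match is a run of letters and not a shown binding site, and enhancers lie outside these windows.

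Genes next to the members on the chromosome were taken as the nearest measured named genes in the order of the RefSeq annotation. They were within 2-fold of medium in the 9 of 12 cases bright enough to compare. Nearly all compared genes were too, as only 0.109% to 0.673% were past 2-fold on a given side. Their largest difference was 0.39, for Tmem50b beside Ifngr2 with IL-6/TGFb1. Beside Eomes, Cmc1 had differences of -0.07 with IL-21 and -0.02 with IL-6/TGFb1, and Golga4 had 0.17 in each. Beside Ifng, Dyrk2 had 0.20 with IL-21 and -0.05 with IL-6/TGFb1, and Iltifb, a relative of the cytokine gene Il22, was below the brightness limit on all 3 arrays (36.6, 41.6 and 47.9). The neighbours of Tbx21, Osbpl7 and Tbkbp1, had intensities exactly equal between IL-21 and medium and differences of 0.05 and -0.08 with IL-6/TGFb1. Ifngr2 lies beside Ifnar1, a chain of the type I interferon receptor, which had an intensity of 1524 with IL-21 and 1322 with IL-6/TGFb1, against 1524 with medium. Exact ties of this kind are common in these values (19.1% of probe sets between IL-21 and medium), but no member had a tie between any pair of arrays.

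The pathway downstream of the receptor was described by the 9 measured and compared genes of a list of 10 signalling genes. None was past 2-fold in any comparison. On a given side, only 0.109% to 0.673% of all compared genes were, so a count of 0 in so short a list is uninformative. The list median was 0.13 with IL-21 and 0.17 with IL-6/TGFb1, against medians over all compared genes of 0.04 and 0.02. Jak2, the kinase bound by Ifngr2, had the largest differences, with intensities of 3738 with IL-21 and 2969 with IL-6/TGFb1, against 2249 with medium (log2 differences of 0.73 and 0.40). Jak1, bound by Ifngr1, had a log2 difference of 0.22 in each. Ptpn2, a phosphatase that switches off Jak1, had log2 differences of 0.31 and 0.22. Pias4, a SUMO ligase gene of the PIAS family, had log2 differences of 0.05 and 0.31.

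Genes commonly induced by interferon gamma were represented by 27 compared genes of a list of 40. None was past 2-fold in any comparison. Over all compared genes, the share past 2-fold on a given side ran from 0.109% to 0.673%. At such shares a count of 0 in a list of this size does not set it apart from other genes. With IL-21, 17 of 27 were below medium and the median was -0.04, where 28.6% of all compared genes were below medium. Under quantile normalization these were 20 of 27 and 54.0% of all compared genes. With IL-6/TGFb1, 19 of 27 were below medium and the median was -0.09, where 36.6% of all compared genes were. After centring each array on its median, the list median with IL-21 changed sign to 0.03, with 17 of 27 genes above medium, where 82.2% of all compared genes were, and a median over all compared genes of 0.10. Between the cytokine cultures 22 of 27 were higher with IL-21, where 44.7% of all compared genes were, and the list median was 0.09. After median centring these were 25 of 27 and 70.9% of all compared genes.

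Individual genes of that list were within 2-fold, with differences from -0.51 to 0.59 with IL-21 and from -0.79 to 0.18 with IL-6/TGFb1. The larger differences with IL-6/TGFb1 were thus below medium. Of the genes named here, Irf8, Iigp1, Cd274 and Gbp7 lay below the central 95% of compared genes there, whose lower limit was -0.35. Irf8, a transcription factor of the interferon response, had intensities of 3977 with IL-21 and 4058 with IL-6/TGFb1, against 5668 with medium (log2 differences of -0.51 and -0.48). Iigp1, a GTPase that attacks the vacuoles of intracellular parasites, had log2 differences of -0.43 and -0.65. Cd274, which encodes the inhibitory ligand PD-L1, had log2 differences of 0.01 with IL-21 and -0.79 with IL-6/TGFb1. Gbp7, a guanylate-binding protein gene, was also near medium with IL-21 and below it with IL-6/TGFb1 (log2 differences of 0.05 and -0.63). The MHC class II gene H2-Ab1 was above medium, by log2 differences of 0.59 in IL-21 and 0.18 in IL-6/TGFb1.

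Known targets of T-bet, Eomes or Runx3 other than Ifng went in different directions. Of a list of 20, 19 were measured and 13 were bright enough to compare. With IL-21, the median of the 13 was 0.33, and 1 gene was 2-fold or more above medium and 0 as far below, against 0.482% and 0.109% of all compared genes. The count above was 3 under median centring, and under quantile normalization 1 gene was past 2-fold on each side. With IL-6/TGFb1, the median was 0.09, and 0 genes were 2-fold or more above medium and 2 as far below, against 0.673% and 0.364% of all compared genes. The count below was 1 under median centring and with a pseudocount of 16. Between the cytokine cultures 12 of the 13 were higher with IL-21, where 44.7% of all compared genes were. Past 2-fold on that side were 2 of them (Gzma at 1.34 and Nkg7 at 1.02), against 0.264% of all compared genes. After median centring all 13 were higher with IL-21, as were 70.9% of all compared genes.

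The chemokine gene Ccl3 was the target closest to Ifng, with intensities of 2465 with IL-21 and 1277 with IL-6/TGFb1, against 4915 with medium (log2 differences of -0.995 and -1.94). Its IL-21 difference fell just short of 2-fold and passed it under quantile normalization. The related chemokine gene Ccl4 had log2 differences of -0.38 and -0.61. Nkg7, a cytotoxic granule protein gene, had an intensity of 2291 with IL-21 and 1126 with IL-6/TGFb1, against 2259 with medium (log2 differences of 0.02 and -1.004, the last of them a 2.01-fold difference that fell short of 2-fold with a pseudocount of 16 and under median centring). Like Tbx21, Nkg7 was thus nearly equal between IL-21 and medium and lower with IL-6/TGFb1, whereas Eomes was lower in both.

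Other targets were above medium while Eomes and Ifng were below it. The granzyme gene Gzma had an intensity of 480.3 with IL-21 and 189 with IL-6/TGFb1, against 149 with medium (log2 differences of 1.68 and 0.34), and its medium value was dim. Gzmb, which encodes granzyme B, had an intensity of 4818 with IL-21 and 3430.5 with IL-6/TGFb1, against 2460.5 with medium (log2 differences of 0.97 and 0.48). The chemokine receptor gene Cxcr3, a marker of Th1 cells, had an intensity of 1339.8 with IL-21 and 1031 with IL-6/TGFb1, against 684 with medium (log2 differences of 0.97 and 0.59). Gzmb and Cxcr3 were past 2-fold with IL-21 under median centring of the arrays. Cxcr3 was singled out after its value had been seen.

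**Figure D3:**
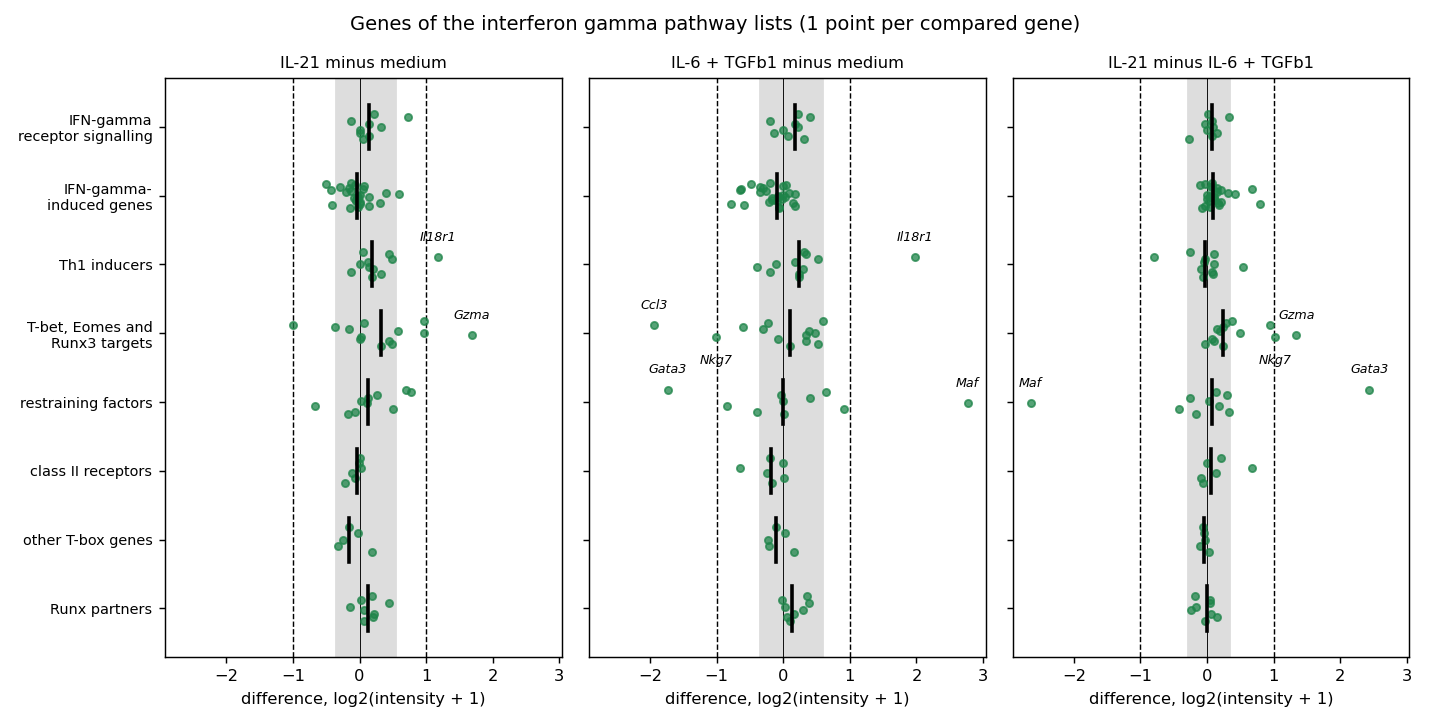
Difference in log2(intensity + 1) (horizontal axis) of each compared gene in 8 lists, in 3 comparisons of 1 array with 1 array; black bars are list medians, grey bands span the central 95% of all compared genes and dashed lines mark 2-fold, past which genes are named. The T-bet, Eomes and Runx3 targets spread to both sides (Gzma at 1.68 with IL-21, Ccl3 at -1.94 with IL-6/TGFb1). No gene of the interferon gamma-induced list reaches 2-fold, where 0.109% to 0.673% of all compared genes do on a given side.

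Upstream of T-bet and Ifng, the list of Th1-inducing receptors and factors had 11 compared genes of 12. Of all compared genes, 0.482% with IL-21 and 0.673% with IL-6/TGFb1 were past 2-fold on the higher side. On the lower side these were 0.109% and 0.364%. In each cytokine culture 1 gene of the list was past 2-fold on the higher side and 0 on the lower side. That gene was Il18r1, a chain of the receptor for the interferon gamma-inducing cytokine IL-18, with intensities of 395 with IL-21 and 687 with IL-6/TGFb1, against 174 with medium (log2 differences of 1.18 and 1.97), where the medium value was below the brightness limit. Its partner Il18rap had log2 differences of 0.49 and 0.51. Il12rb2, the signalling chain of the IL-12 receptor, had an intensity of 4924 with IL-21 and 4588 with IL-6/TGFb1, against 3624 with medium (log2 differences of 0.44 and 0.34). Stat4, the transcription factor activated by IL-12, had log2 differences of 0.14 with IL-21 and -0.40 with IL-6/TGFb1. Like Tbx21, Stat4 was below medium only with IL-6/TGFb1.

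Factors known to restrain T-bet, Eomes or Ifng gave 10 compared genes of 12 listed. With IL-21 none was past 2-fold, against 0.482% of all compared genes on the higher side and 0.109% on the lower. The highest difference with IL-21 was that of the repressor Bcl6 (0.77, intensities 322 and 188). With IL-6/TGFb1, 1 was past 2-fold on each side, against 0.673% of all compared genes on the higher side and 0.364% on the lower. Maf, a transcription factor of IL-10, IL-21 and Th17 programs, had intensities of 296 with IL-21 and 1865 with IL-6/TGFb1, against 273 with medium (log2 differences of 0.12 and 2.77). Gata3, the Th2 factor that opposes T-bet, had an intensity of 2451 with IL-21 and 453 with IL-6/TGFb1, against 1513 with medium (log2 differences of 0.70 and -1.74). Smad3, which carries TGF-beta signals, had log2 differences of 0.50 and 0.92, and Foxp3, the factor of regulatory T cells, of -0.66 and -0.84.

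Relatives of the members showed no difference past 2-fold, where 0.109% to 0.673% of all compared genes did on a given side. At such shares the absence of calls does not set the relatives apart from other genes. Of the other T-box genes, 13 of 15 were measured and 5 compared, and with IL-21 their differences ran from -0.32 (Tbx6) to 0.19 (Mga), with IL-6/TGFb1 from -0.22 (Tbx3) to 0.16 (Mga). Apart from Mga, the highest intensity of these genes was 267 (Tbx2). Among 8 compared Runx partners and relatives, differences ran from -0.14 to 0.44 with IL-21 and from -0.03 to 0.39 with IL-6/TGFb1. Runx1, a relative of Runx3, had log2 differences of 0.18 and 0.36, and Cbfa2t2, a corepressor gene, had log2 differences of 0.44 and 0.39. The other class II cytokine receptor chains had 6 compared genes of 10. The one with the largest difference was Il10ra, the ligand-binding chain for IL-10, with an intensity of 809 with IL-21 and 508 with IL-6/TGFb1, against 798 with medium (log2 differences of 0.02 and -0.65).

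The genes with the pattern most like Eomes and Ifng were found by the distance between their pairs of log2 differences from medium, which rest on 3 arrays and share the medium array. The nearest to Eomes was Ifi203, an interferon-inducible gene of the p200 family, at a distance of 0.63, followed by Ccdc141 (0.87), Lad1 (1.01), Ifng (1.35), the activation marker gene Cd83 (1.39) and Dapl1 (1.46). The nearest to Ifng were Cd83 (0.14), Ccl3 (0.17), the costimulatory ligand gene Cd80 (0.27), the T cell receptor adaptor gene Trat1 (0.33), Pld4, an exonuclease of the phospholipase D family (0.38), and Igfbp7 (0.40). Genes with provisional symbols, such as Gm numbers and Rik names, were left out of this search. Of the genes searched, none lay within 0.1 of Eomes or of Ifng, whereas 15 lay that near to Tbx21, 1767 to Runx3, 1520 to Ifngr1 and 561 to Ifngr2. These counts follow from the size of the differences, because most compared genes lie near 0 and few lie far from it.

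**Figure D4:**
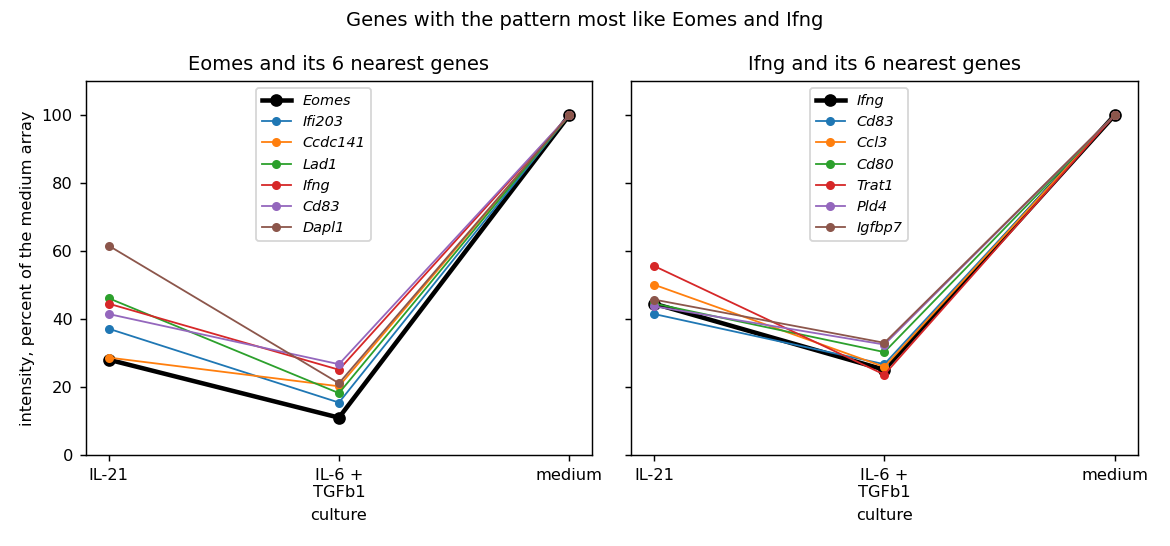
Intensity as a percent of the medium array (vertical axis) in the 3 cultures for Eomes (left) and Ifng (right) in black and the 6 genes nearest to each in colour, 1 array per culture; lines join the values of a gene. Every curve is lowest with IL-6/TGFb1, and Eomes is the lowest of its panel in both cytokine cultures (28.1% and 11.1%).

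NK cells and CD8+ T cells also express Eomes and Ifng, so their markers were read beside those of CD4+ T cells. The CD4 T cell markers were bright in every culture, with summed intensities over 6 genes of 31299.5 with IL-21 and 31739.6 with IL-6/TGFb1, against 28741 with medium. Of 6 measured NK cell markers, none reached the brightness limit on any array, among them the defining markers Ncr1 (74.6, 76.3 and 76.3) and Klrb1c (43.9, 44.7 and 43.9). The brightest of the NK cell markers, Fcer1g (186, 176 and 176), was just under the limit of 187 with IL-21. Under quantile normalization 1 of the NK cell markers reached the limit. Their summed intensity was 429 with IL-21 and 424 with IL-6/TGFb1, against 420.0 with medium. Of the CD8 T cell markers, Cd8a was below the limit on all arrays (145, 155 and 163), while Cd8b1 had an intensity of 731 with IL-21 and 616 with IL-6/TGFb1, against 810.4 with medium (log2 differences of -0.15 and -0.39). The part of Cd8b1-expressing cells in the Eomes and Ifng differences was not tested. The myeloid list had 0 of 6 genes at the limit, and the B cell list 1 of 4 (Cd79b, with log2 differences of 0.02 and 0.06).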

How the data were processed

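RNA of 3 cultures was measured on 1 array each. Per the labels' protocols a service company hybridized it after fragmentation and biotin labelling with an Affymetrix kit. The deposited values are linear intensities, 1 per probe set and array (28815 probe sets); how the authors summarized and normalized them is not stated in the sources at hand. The genome build, per the submitters' processing notes, was mm8. The number of arrays limits the precision, and p-values could not be computed.

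The platform annotation named the probe sets, using the 21780 with 1 symbol (1605 had several and 5430 none listed). The probe set with the highest mean log2 value stood for a gene. Differences are in log2(intensity + 1). Genes were compared if their highest value reached the median of all values (187). Distances, counts and promoter matches were computed with Python 3.11.15, numpy 2.4.6 and pandas 2.3.3, and the calculation was tested on simulated data. The RefSeq gene table (GRCm38.p6) gave gene order and names, and promoter sequences came from RefSeq with the same build.

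The members and lists were chosen with earlier results of these data known. Named were all members, list genes past 2-fold or among the 3 largest differences of a comparison, the 6 genes nearest to Eomes and to Ifng, and the nearest neighbours. Alternatives were another pseudocount (16), raised low values, quantile normalization, median centring, no or a stricter brightness filter (the 75th percentile), and averaged probe sets. The probe set of highest mean intensity, and values below the brightness limit raised to it, were added after seeing the data.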

Additional observations from a re-analysis of the deposited data

How the results depend on the processing

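The 18 differences of the 6 genes were recomputed under 9 alternative settings. Each member has 1 probe set, passes every filter and has no value under the floor of 69 to which low values were raised. Raised low values, no filter, the stricter filter and both probe set choices therefore returned the main value. Of the 162 values, 159 kept their sign and their side of 2-fold, in part by construction. Eomes in IL-21 minus IL-6/TGFb1 was within 2-fold (0.82) with values below the brightness limit raised to it, which replaces its dim IL-6/TGFb1 value. The other exceptions were near 0, Ifngr2 in IL-21 minus medium at -0.05 under quantile normalization and Ifngr1 in IL-21 minus IL-6/TGFb1 at 0.03 after median centring. Eomes ran from -1.91 to -1.76 with IL-21 and from -3.22 to -2.65 with IL-6/TGFb1. Ifng ran from -1.28 to -1.10 and from -2.05 to -1.93. The number of members past 2-fold was the same under every setting run, except that it was 0 in place of 1 between the cytokine cultures with values raised to the brightness limit. There were 1245 such values for 48 other genes of the lists, some also fixed by the setting. Of these, 1215 kept sign and side of 2-fold and 30 did not. Those that crossed 2-fold were Ccl3 (-1.01 with IL-21, quantile normalization), Gzmb (1.04) and Cxcr3 (1.03) with IL-21 after median centring, and Nkg7 with IL-6/TGFb1 (-0.994 with a pseudocount of 16, -0.981 after median centring). The cause was not tested. The background count moved by more than 1.5 times only with the stricter brightness filter, which tests fewer genes (5616 in place of 11003). It then gave 34 genes past 2-fold in place of 65 in IL-21 minus medium, 68 in place of 114 in IL-6/TGFb1 minus medium, and 30 in place of 50 between the cytokine cultures. No paired analysis was possible because each culture had 1 array. With no replicate, the spread over cultures or arrays is unknown, and dim signals, such as Eomes with IL-6/TGFb1, are measured least well.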

Other observations

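Several targets of T-bet, Eomes or Runx3 were below the brightness limit on every array and entered no count above. The NK receptor chain gene Klrd1, which encodes CD94, had intensities of 98.1 with IL-21 and 173 with IL-6/TGFb1, against 66.0 with medium. Its partner gene Klrc1, which encodes NKG2A, had 122 and 115, against 79.6. The death ligand gene Fasl had 149.8 with IL-21 and 111 with IL-6/TGFb1, against 171 with medium, and the chemokine gene Xcl1 had 130.4 and 113, against 136. The inhibitory receptor gene Havcr2 had 79.0 and 77.4, against 79.0. No order is read from values at this level.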
